A study of Mus musculus with 2 samples.

Results

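The genes described here encode the constitutive proteasome: the subunits of its core particle, the subunits of its regulatory particle, the activators and the inhibitor that dock on the core, and the chaperones that assemble both. They were chosen by symbol, as mouse genes beginning Psma to Psmg with a number, leaving out the inducible subunits Psmb8, Psmb9 and Psmb10. Of 51 annotated symbols that match, 46 were listed in the deposited table, out of 12384 listed gene symbols. The 5 that were not listed are the thymus subunit gene Psmb11 and 4 pseudogenes. One match, Psmc3ip, encodes a meiotic recombination cofactor named after its binding to a proteasome subunit and is not itself part of the particle.

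The study sequenced RNA from C57BL/6 mouse hearts. The CHAPIR heart came from a mouse that received a synthetic mimic of CHAPIR, a PIWI-interacting RNA of the heart, at 30 mg/kg from an osmotic minipump carried dorsally for 14 days, and the NC heart came from a mouse that received a scrambled mimic by the same route. The age and sex of the mice and the dose of the scrambled mimic are not given in the labels used here. Each group was 1 library, so nothing measures the spread between animals, no difference below has a replicate check, and no p-value is given.

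The proteasome is the protease that degrades proteins tagged with ubiquitin chains. Its core particle is a barrel of stacked rings, with outer rings of alpha subunits that form the gate and inner rings of beta subunits that hold the cutting sites. The regulatory particle caps the barrel: its base carries a ring of ATPases that unfolds the substrate and its lid carries the enzyme that removes ubiquitin. In heart muscle the proteasome turns over sarcomere and damaged proteins, and in cells exposed to interferon gamma the inducible subunits and the activator PA28 are produced in addition.

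Values are FPKM (fragment density along a transcript, corrected for the size of the library), summed over the listed transcripts of a gene, and they allow levels of different genes to be compared per length. Log2 ratios were taken after adding 1 to both values, CHAPIR over NC, so a positive ratio means higher in the CHAPIR heart. Because 1 is added, it understates differences of genes with low values. A gene was counted when this ratio reached 1.5-fold, among the 11095 genes whose mean over both libraries reached 1 FPKM.

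The 2 hearts differed in other ways that bear on every comparison. Transcripts of 4 Y-linked genes were present in the CHAPIR library, at 51.6 FPKM in sum, and listed at 0 in the NC library. Xist was not listed for either library, so any reading of sex rests on the Y-linked genes alone, and a difference in sex and the mimic cannot be told apart. All 12 genes of an interferon response list passed 1.5-fold upward in the CHAPIR heart, with 2079 FPKM in sum against 723 FPKM in the NC heart and a median log2 ratio of 2.05. All 12 macrophage markers had positive ratios, 6 of them at 1.5-fold, with 495 FPKM in sum in the CHAPIR heart against 290.5 FPKM in the NC heart. White adipocyte markers were sparser in the CHAPIR heart, with 6 of the 7 measured ones past 1.5-fold downward, and there Retn and Lep were listed at 0. Both brown adipocyte markers also passed 1.5-fold downward, with 19.8 FPKM in sum in the CHAPIR heart against 37.8 FPKM in the NC heart. All 4 platelet markers listed passed it upward, with 50.1 FPKM in sum in the CHAPIR heart against 16.4 FPKM in the NC heart. Both measured neutrophil markers did too, and the list summed to 24.7 FPKM in the CHAPIR heart against 5.83 FPKM in the NC heart. All 5 red cell markers had positive ratios below 1.5-fold, with a median log2 ratio of 0.32. Heart muscle markers were abundant in both libraries, at 23674 FPKM in sum in the CHAPIR heart and 25312 FPKM in the NC heart, with a median log2 ratio of -0.09. Markers of germ cells and thymocytes were not listed in either. The part of any of these in the results below was not tested.

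The constitutive proteasome genes were expressed at nearly equal levels in both hearts. Of the 44 whose mean reached 1 FPKM, 1 passed 1.5-fold upward in the CHAPIR heart, which is 2.27%, against a background of 6.38% of all genes. None passed it downward, against a background of 3.59%. At 2-fold the counts of higher and lower members were again 1 and 0, against backgrounds of 2.35% and 1.15%. A ratio under 1.25-fold in either direction held for 39 of the 44, or 88.6%, against 75.7% of all genes. These backgrounds depend on expression. The range of means from 20 to 100 FPKM holds 31 of the 44 members and 1768 of all genes. In it 84.6% of genes were under 1.25-fold, and so were 28 of the 31 members. At 1.5-fold, 3.85% of its genes passed upward and 2.49% downward, so counts of 1 and 0 do not set the members apart. In bulk tissue a smaller number of cells of one type and less RNA per cell cannot be told apart.

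Summed over all 46 listed genes, the level was 1823 FPKM in the CHAPIR heart and 1877 FPKM in the NC heart. The median of the 44 was 39.1 FPKM in the CHAPIR heart and 43.6 FPKM in the NC heart, well above the median of all genes, which was 6.91 FPKM in the CHAPIR heart and 6.72 FPKM in the NC heart. The median log2 ratio of the 44 was -0.03, beside 0.00 for all genes and -0.04 for genes averaging 20 to 100 FPKM. Of the 44, 17 had a ratio above 0 and 27 below, beside 49.2% of all genes below. The member counts became 22 and 22 under quantile normalization, so no common direction is given. The quartiles of the members were -0.14 and 0.06, and those of genes averaging 20 to 100 FPKM were -0.16 and 0.09. The order of the genes by level was nearly the same in both libraries (Spearman rho 0.967 across 44 genes, which are not independent). No value over all genes is given beside it, so it does not set the members apart.

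**Figure D1:**
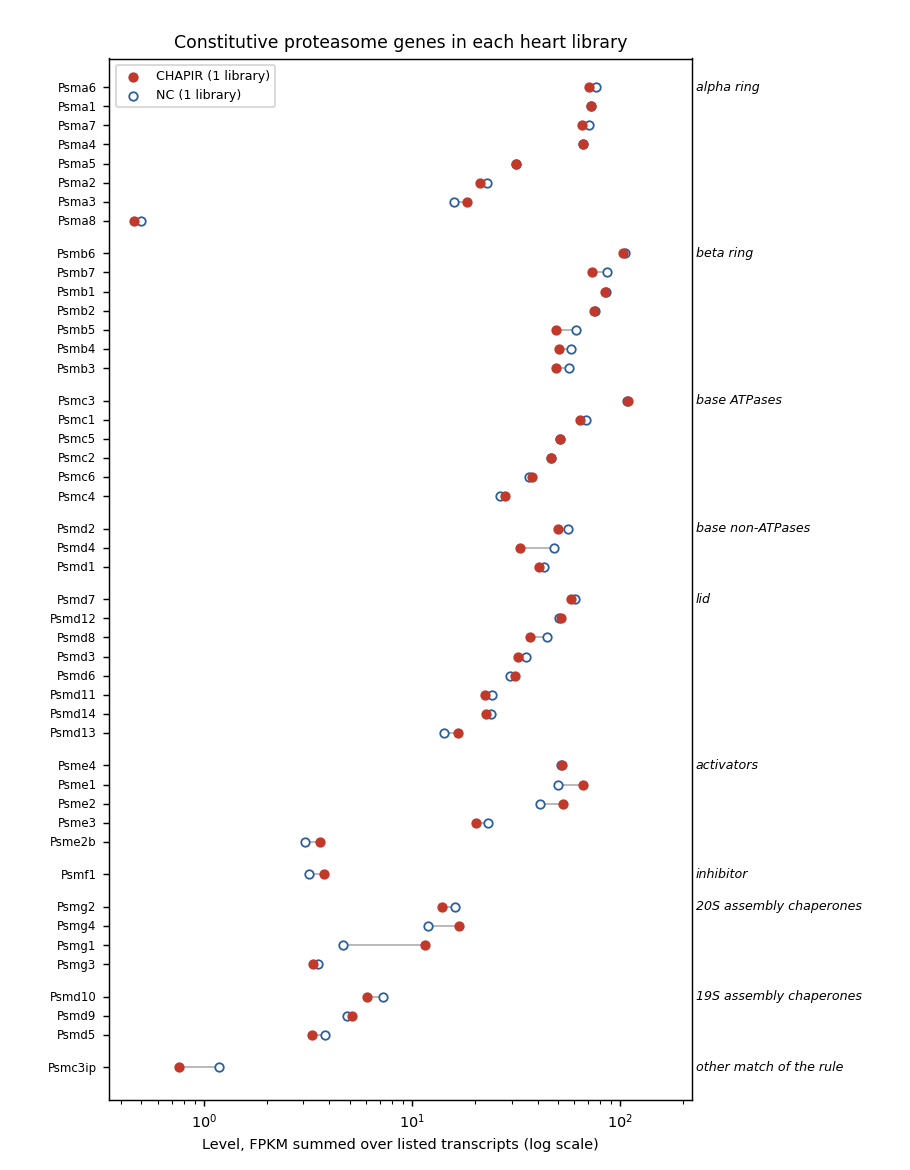
Level in FPKM (log axis) of each of the 46 listed genes in the CHAPIR heart (filled circles) and the NC heart (open circles), 1 library each, grouped by role. Most pairs of circles touch or overlap, and the widest gap is that of Psmg1, at 11.6 FPKM in the CHAPIR heart and 4.64 FPKM in the NC heart.

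**Figure D2:**
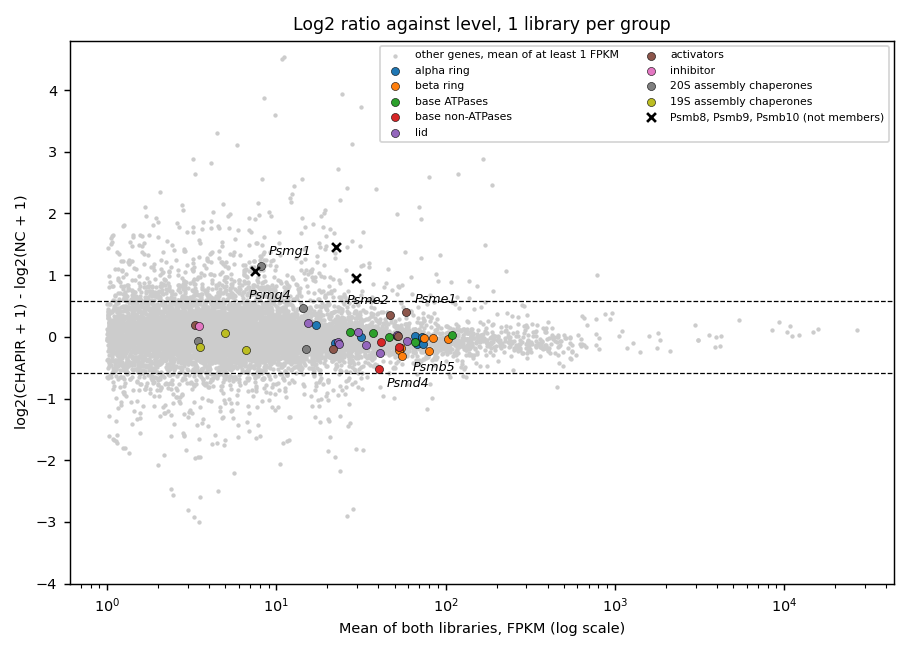
Log2 ratio of CHAPIR over NC against the mean of both libraries in FPKM (log axis) for all 11095 genes whose mean reached 1 FPKM (grey) and for the 44 proteasome genes by role (coloured), with dashed lines at 1.5-fold. Psmg1 is the 1 coloured point outside the lines, while the inducible Psmb8, Psmb9 and Psmb10 (crosses) lie above the upper line.

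Among the alpha subunits, which form the gated outer rings, no gene differed by 1.25-fold. Psma1 was at 72.2 FPKM in the CHAPIR heart and 72.5 FPKM in the NC heart. Psma6 was at 70.98 FPKM in the CHAPIR heart and 76.7 FPKM in the NC heart. Psma4 was at 66.5 FPKM in the CHAPIR heart and 65.96 FPKM in the NC heart. These 3 and Psma7, at 65.2 FPKM in the CHAPIR heart and 70.4 FPKM in the NC heart, formed an upper group. Below them stood Psma5, at 31.6 FPKM in the CHAPIR heart and 31.6 FPKM in the NC heart. Psma2 was at 21.3 FPKM in the CHAPIR heart and 22.9 FPKM in the NC heart. The lowest was Psma3, at 18.3 FPKM in the CHAPIR heart and 15.8 FPKM in the NC heart, with the highest log2 ratio of the ring, 0.20. Although the assembled ring holds the subunits in equal number, the levels of their transcripts per length spanned 3.94-fold in the CHAPIR heart and 4.84-fold in the NC heart. The only listed transcripts of Psma2 and Psma3 are annotated with 2911 and 2846 bases. The main transcripts of the other measured genes of the ring have 914 to 1239 bases. The part of annotated length in the span was not tested. Psma8, which replaces Psma7 in the testis, was listed at 0.46 FPKM in the CHAPIR heart and 0.50 FPKM in the NC heart and did not reach the minimum mean.

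The beta subunits were more even in level. All 7 had log2 ratios below 0, between -0.32 and -0.02, beside 49.2% of all genes below 0. Under quantile normalization 3 of the 7 were above 0. The median log2 ratio was -0.04 for genes averaging 20 to 100 FPKM and -0.07 for genes averaging 100 FPKM or more. Psmb5, Psmb6 and Psmb7 carry the cutting sites. Psmb5 (chromosome 14, 54614119 to 54618022) is the chymotrypsin-like subunit. It was at 49.1 FPKM in the CHAPIR heart and 61.4 FPKM in the NC heart, a log2 ratio of -0.32 and the lowest of the ring. Psmb7, the trypsin-like subunit, was at 73.3 FPKM in the CHAPIR heart and 86.4 FPKM in the NC heart, a log2 ratio of -0.23. Psmb6, the caspase-like subunit and the most abundant of the ring, was at 102.8 FPKM in the CHAPIR heart and 105.04 FPKM in the NC heart. Genes averaging 20 to 100 FPKM had a 5th percentile of -0.39, so Psmb5 and Psmb7 lay inside the central 90% of that range.

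The other beta subunits have no cutting site of their own. Psmb1 was at 84.02 FPKM in the CHAPIR heart and 85.3 FPKM in the NC heart. Psmb2 was at 74.4 FPKM in the CHAPIR heart and 75.6 FPKM in the NC heart, so both were nearly equal. Psmb3 was at 49.2 FPKM in the CHAPIR heart and 56.96 FPKM in the NC heart. Psmb4 was at 50.7 FPKM in the CHAPIR heart and 57.7 FPKM in the NC heart. The ring spanned 2.09-fold from its lowest to its highest gene in the CHAPIR heart and 1.84-fold in the NC heart, with a sum of 483 FPKM in the CHAPIR heart and 528 FPKM in the NC heart.

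The inducible subunits that take the place of the 3 cutting subunits showed another pattern: Psmb8 was at 68.2% of the level of Psmb5 in the CHAPIR heart and at 18.7% of it in the NC heart, Psmb10 at 53.2% of Psmb7 in the CHAPIR heart and 22.8% in the NC heart, and Psmb9 at 10.2% of Psmb6 in the CHAPIR heart and 4.26% in the NC heart. Their sum was 82.96 FPKM in the CHAPIR heart against 35.7 FPKM in the NC heart, and all 3 passed 1.5-fold.

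The ATPases of the base were the most even of the groups with several genes, with all 6 log2 ratios between -0.08 and 0.08. Psmc3 was the most abundant listed proteasome gene, at 109.4 FPKM in the CHAPIR heart and 107.6 FPKM in the NC heart. Psmc1 was at 64.2 FPKM in the CHAPIR heart and 68.05 FPKM in the NC heart. Psmc5 was at 51.4 FPKM in the CHAPIR heart and 51.1 FPKM in the NC heart. All 3 encode subunits of the hexameric motor that threads the substrate into the core, as do the remaining 3. Psmc2 was at 46.5 FPKM in the CHAPIR heart and 46.7 FPKM in the NC heart. Psmc6 was at 37.8 FPKM in the CHAPIR heart and 36.2 FPKM in the NC heart. Psmc4, the lowest, was at 27.97 FPKM in the CHAPIR heart and 26.4 FPKM in the NC heart.

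The base also holds large scaffold subunits and ubiquitin receptors. Psmd4, the ubiquitin receptor also called Rpn10 (chromosome 3, 95032694 to 95042614), had the lowest log2 ratio of all 44 members. It was at 33.1 FPKM in the CHAPIR heart and 47.9 FPKM in the NC heart, a log2 ratio of -0.52, just inside the 1.5-fold threshold of 0.58. It was the 1 member below the 5th percentile of genes averaging 20 to 100 FPKM. Psmd2, a scaffold and docking site for ubiquitin shuttles, was at 50.2 FPKM in the CHAPIR heart and 56.3 FPKM in the NC heart. Psmd1, the other large scaffold, was at 40.5 FPKM in the CHAPIR heart and 42.8 FPKM in the NC heart.

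In the lid, all 8 genes lay between -0.27 and 0.22, with 3 above 0 and 5 below. Psmd14, the metalloprotease that cuts ubiquitin chains off the substrate, was at 22.5 FPKM in the CHAPIR heart and 23.8 FPKM in the NC heart. Psmd7, its inactive partner, was at 58.02 FPKM in the CHAPIR heart and 60.7 FPKM in the NC heart. Both were slightly lower in the CHAPIR heart. The other lid genes encode scaffold subunits. Psmd12 was at 52.1 FPKM in the CHAPIR heart and 50.96 FPKM in the NC heart. Psmd8 was at 36.8 FPKM in the CHAPIR heart and 44.5 FPKM in the NC heart, the lowest ratio of the lid. Psmd3 was at 32.3 FPKM in the CHAPIR heart and 35.4 FPKM in the NC heart. The next 3 stood on both sides of equality. Psmd6 was at 31.3 FPKM in the CHAPIR heart and 29.5 FPKM in the NC heart. Psmd11 was at 22.5 FPKM in the CHAPIR heart and 24.3 FPKM in the NC heart. Psmd13 was at 16.7 FPKM in the CHAPIR heart and 14.2 FPKM in the NC heart, the highest ratio of the lid. Over the 31 measured structural subunits of core, base and lid together the median log2 ratio was -0.06, and the sum was 1563 FPKM in the CHAPIR heart and 1651 FPKM in the NC heart.

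The activators are given by kind. Psme1 and Psme2 encode the paired subunits of PA28, which opens the core without ubiquitin and is known to be induced by interferon gamma. They lie close together on chromosome 14, at 55578123 to 55581529 on the plus strand and 55587441 to 55591113 on the minus strand. Psme1 was at 66.3 FPKM in the CHAPIR heart and 49.9 FPKM in the NC heart, a log2 ratio of 0.40. Psme2 was at 53.2 FPKM in the CHAPIR heart and 41.2 FPKM in the NC heart, a log2 ratio of 0.36. Both were over 1.25-fold higher in the CHAPIR heart but under 1.5-fold, and both lay inside the central 90% of genes averaging 20 to 100 FPKM, whose 95th percentile was 0.47.

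A difference under 1.25-fold was seen for the other activators, Psme3, Psme4 and Psme2b. Psme3, the nuclear PA28 gamma, was at 20.2 FPKM in the CHAPIR heart and 23.2 FPKM in the NC heart, a log2 ratio of -0.20. Psme4, the large activator PA200, was at 52.4 FPKM in the CHAPIR heart and 51.98 FPKM in the NC heart, a log2 ratio of 0.01. The interferon response list given above was higher in the CHAPIR heart as well, and its part in the PA28 values was not tested. The ratio of Psme1 to Psme3 was 3.29 in the CHAPIR heart and 2.15 in the NC heart. Psme2b, a single-exon copy of Psme2, was at 3.61 FPKM in the CHAPIR heart and 3.04 FPKM in the NC heart. Its 717 coding bases differ from those of Psme2-208 at 5 positions, an identity of 99.3%, so how reads were shared between the copies is uncertain. Psmf1, the inhibitor PI31, was at 3.76 FPKM in the CHAPIR heart and 3.2 FPKM in the NC heart, among the lowest of the 44.

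The chaperones that assemble the core were the most uneven group. They act in pairs, Psmg1 with Psmg2 and Psmg3 with Psmg4, and guide the alpha subunits into a ring. Psmg1 lies on chromosome 16, at 95979933 to 95990960 on the minus strand. Its level was 11.6 FPKM in the CHAPIR heart and 4.64 FPKM in the NC heart, a ratio of 2.49 and a log2 ratio of 1.16. It was the 1 member at 1.5-fold and also the 1 member above the 95th percentile of genes of its range of expression, 0.66 for a mean of 5 to 20 FPKM. Its partner Psmg2 was at 13.9 FPKM in the CHAPIR heart and 16.1 FPKM in the NC heart, a log2 ratio of -0.20, so the genes of 1 heterodimer lay on opposite sides of 0.

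Psmg4 lies on chromosome 13, at 34162964 to 34178173 on the plus strand. Its level was 16.9 FPKM in the CHAPIR heart and 11.9 FPKM in the NC heart, a log2 ratio of 0.47. Its partner Psmg3 was at 3.33 FPKM in the CHAPIR heart and 3.53 FPKM in the NC heart, a log2 ratio of -0.06. In both pairs 1 gene was higher in the CHAPIR heart and the other differed by under 1.25-fold. The 3 chaperones of the base differed less. Psmd10, also known as gankyrin, was at 6.08 FPKM in the CHAPIR heart and 7.22 FPKM in the NC heart. Psmd9 was at 5.12 FPKM in the CHAPIR heart and 4.86 FPKM in the NC heart. Psmd5 was at 3.28 FPKM in the CHAPIR heart and 3.81 FPKM in the NC heart. Psmc3ip was at 0.75 FPKM in the CHAPIR heart and 1.18 FPKM in the NC heart and did not reach the minimum mean.

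The value of Psmg1 rests on 1 listed transcript of the 4 annotated, Psmg1-201, whose version in the table differs from that in the annotation used here. With version-matched transcripts only, Psmg1 has no value and no member passes 1.5-fold.

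The start regions of the genes were read from RefSeq, on the build GRCm38.p6, as windows of 300 bases, 250 before and 50 after the annotated start. A window was found for 38 of the 46 listed genes, 41 windows in all. Each was searched on both strands for the core letters of elements that control proteasome genes. TGACNNNGC is the core of the antioxidant response element bound by NRF1 (gene Nfe2l1), the factor known to raise proteasome genes when the proteasome is blocked. It was found in the windows of 6 of the 38 genes, Psmb5, Psmb6, Psmc6, Psmd9, Psmd12 and Psme4, and in 12.4% of 32817 windows of all genes. GAAANNGAAA, the core of the interferon-stimulated response element, was found for 5 genes, Psmb3, Psmd4, Psmd9, Psme1 and Psmg4, and in 3.43% of all windows. TTCNNNGAA, the palindromic core bound by STAT factors, was found for Psmd2 and Psmg1 and in 8.29% of all windows. The CCAAT box was found for 13 genes and in 37.4% of all windows. Counted by window, as the shares of all genes are, the matches were again 6, 5, 2 and 13, of 41 windows. The 8 listed genes without a window were not searched.

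Of the 5 genes with the interferon core letters, Psmg4, Psme1 and Psmd9 had log2 ratios above 0 and Psmb3 and Psmd4 below. All were under 1.5-fold, and whether the letters bear on these values was not tested. The windows of 3 genes are shown 5′ to 3′ on the strand of the gene, with the matched letters in capitals: that of Psmg1 (chr16:95990911-95991210, minus strand, TTCNNNGAA), as the member with the largest difference, that of Psme1 (chr14:55578244-55578543, plus strand, GAAANNGAAA read on the opposite strand), as an activator that interferon induces, and that of Psmb5 (chr14:54617946-54618245, minus strand, TGACNNNGC), as a cutting subunit. A match describes the letters only and is not evidence of binding.
Psmg1: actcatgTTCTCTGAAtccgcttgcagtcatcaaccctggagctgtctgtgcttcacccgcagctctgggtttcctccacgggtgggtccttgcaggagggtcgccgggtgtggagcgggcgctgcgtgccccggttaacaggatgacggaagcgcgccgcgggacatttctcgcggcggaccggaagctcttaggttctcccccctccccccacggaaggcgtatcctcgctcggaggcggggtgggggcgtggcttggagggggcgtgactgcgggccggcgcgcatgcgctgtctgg
Psme1: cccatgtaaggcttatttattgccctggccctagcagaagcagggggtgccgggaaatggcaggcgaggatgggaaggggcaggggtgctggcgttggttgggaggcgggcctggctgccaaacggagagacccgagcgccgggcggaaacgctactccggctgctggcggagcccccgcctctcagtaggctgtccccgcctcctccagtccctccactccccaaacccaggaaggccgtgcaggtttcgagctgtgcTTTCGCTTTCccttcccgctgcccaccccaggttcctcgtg
Psmb5: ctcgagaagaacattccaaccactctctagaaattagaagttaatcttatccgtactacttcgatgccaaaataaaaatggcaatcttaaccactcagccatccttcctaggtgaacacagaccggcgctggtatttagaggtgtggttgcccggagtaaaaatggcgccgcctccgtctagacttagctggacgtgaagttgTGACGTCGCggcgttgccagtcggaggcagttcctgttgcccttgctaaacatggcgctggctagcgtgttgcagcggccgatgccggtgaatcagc

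Of the 46 listed genes, 28 had 1 listed transcript and 18 had several, 78 transcripts in all. Among the 18, 4 had transcripts past 1.5-fold in opposite directions, Psmd4, Psmd8, Psmd12 and Psme1. That is 22.2%, against a background of 26.2% of the 5570 genes with several listed transcripts, so opposing transcripts were about as common here as elsewhere. The gene sums of these 4 had log2 ratios of -0.52, -0.27, 0.03 and 0.40 in that order, nearest to equal for Psmd12. A transcript value is an estimate that divides reads shared by overlapping transcripts, and its error is not known without replicates.

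Psmd12 had a nearly equal sum, 52.1 FPKM in the CHAPIR heart and 50.96 FPKM in the NC heart, made of unequal parts. Psmd12-203, which ends in a last exon of 745 bases further downstream, was at 16.8 FPKM in the CHAPIR heart and 3.48 FPKM in the NC heart. Psmd12-201 was at 35.3 FPKM in the CHAPIR heart and 41.8 FPKM in the NC heart. Psmd12-202, which skips the second exon, was listed at 0 in the CHAPIR heart and at 5.73 FPKM in the NC heart. The downstream last exon thus made up 32.3% of the sum in the CHAPIR heart and 6.84% in the NC heart. The skipped exon has 60 coding bases (chr11:107485550-107485609, plus strand) and is shown in capitals with 20 bases on each side.
Psmd12-201: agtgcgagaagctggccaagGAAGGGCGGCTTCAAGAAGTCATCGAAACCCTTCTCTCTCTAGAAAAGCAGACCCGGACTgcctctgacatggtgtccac

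Psmd4 is known in mouse for several splice forms of its ubiquitin-binding tail. Psmd4-202 was at 22.99 FPKM in the CHAPIR heart and 33.9 FPKM in the NC heart, about the same share of the gene, at 69.5% in the CHAPIR heart and 70.7% in the NC heart. Psmd4-201 was at 0.0997 FPKM in the CHAPIR heart and 8.43 FPKM in the NC heart, and the shorter Psmd4-206 at 0.21 FPKM in the CHAPIR heart and 2.63 FPKM in the NC heart. Psmd4-203, which keeps an intron of 497 bases near its end, went the other way, at 9.79 FPKM in the CHAPIR heart and 3 FPKM in the NC heart. Within the coding sequence Psmd4-201 and Psmd4-202 differ by 9 bases at 1 exon end (chr3:95033909-95033917, minus strand). Psmd4-203 holds these 9 bases too. The stretch is shown with 30 bases on each side, the extra bases in capitals.
Psmd4-201: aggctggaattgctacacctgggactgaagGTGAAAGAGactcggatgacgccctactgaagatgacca
Psmd4-202: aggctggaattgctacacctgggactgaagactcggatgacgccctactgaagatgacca

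The 3 listed transcripts of Psmd8 share every splice junction and differ only in where the first exon starts, with first exons of 425, 276 and 397 bases. Psmd8-203 was at 18.9 FPKM in the CHAPIR heart and 42.5 FPKM in the NC heart. Psmd8-201, which starts upstream of it, was at 11.1 FPKM in the CHAPIR heart and 0.97 FPKM in the NC heart, and Psmd8-202, which starts downstream, at 6.86 FPKM in the CHAPIR heart and 1.06 FPKM in the NC heart. With the most abundant transcript in place of the sum, the log2 ratio of Psmd8 was -1.13, against -0.27 for the sum, and Psmd8 would count as lower at 1.5-fold.

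Psmg4 did not meet the rule for opposing transcripts, yet its higher sum lay in 1 of its 2 transcripts. Psmg4-202, with 3 exons and 369 coding bases, was at 7.5 FPKM in the CHAPIR heart and 0.99 FPKM in the NC heart. Psmg4-201, with 2 exons and 246 coding bases, was at 9.37 FPKM in the CHAPIR heart and 10.9 FPKM in the NC heart, and with this transcript alone the log2 ratio of Psmg4 was -0.20. The middle exon of Psmg4-202 has 76 bases (chr13:34166061-34166136, plus strand), shown in capitals above the junction that lacks it, with 20 bases on each side.
Psmg4-202: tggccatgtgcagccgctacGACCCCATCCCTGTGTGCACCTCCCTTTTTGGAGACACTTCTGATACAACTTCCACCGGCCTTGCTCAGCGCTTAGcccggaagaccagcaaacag
Psmg4-201: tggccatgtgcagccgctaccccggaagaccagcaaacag

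For Psme1 the opposing transcript was a minor one. Psme1-208 made up 85.6% of the sum in the CHAPIR heart and 90.06% in the NC heart, at 56.8 FPKM in the CHAPIR heart and 44.9 FPKM in the NC heart. Psme1-210 was listed at 0 in the CHAPIR heart and at 1.01 FPKM in the NC heart, while the other 3 were higher in the CHAPIR heart. All 3 listed transcripts of Psme2 were higher in the CHAPIR heart, led by Psme2-208 at 35.6 FPKM, against 29.9 FPKM in the NC heart. Psmc4, whose transcripts differed in opposite directions without passing the threshold, had Psmc4-206 at 16.8 FPKM in the CHAPIR heart and 13.2 FPKM in the NC heart, and Psmc4-201 at 11.2 FPKM in the CHAPIR heart and 13.2 FPKM in the NC heart. The higher sums of both PA28 genes were thus also seen in their main transcripts, with log2 ratios of 0.33 for Psme1-208 and 0.24 for Psme2-208.

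**Figure D3:**
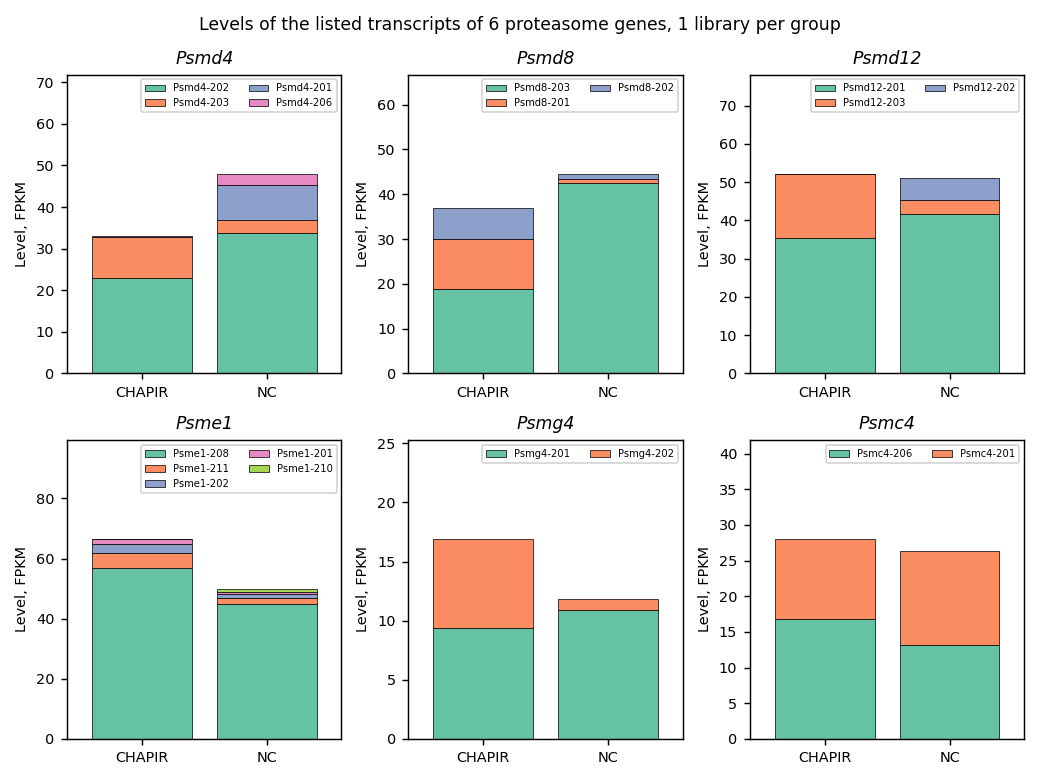
Level in FPKM of each listed transcript of 6 proteasome genes, stacked, in the CHAPIR heart (left bars) and the NC heart (right bars), 1 library each. The bars of Psmd12 are nearly equal in height, at 52.1 FPKM in the CHAPIR heart and 50.96 FPKM in the NC heart, but differ in their parts, and the taller CHAPIR bar of Psmg4 is due to Psmg4-202.

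**Figure D4:**
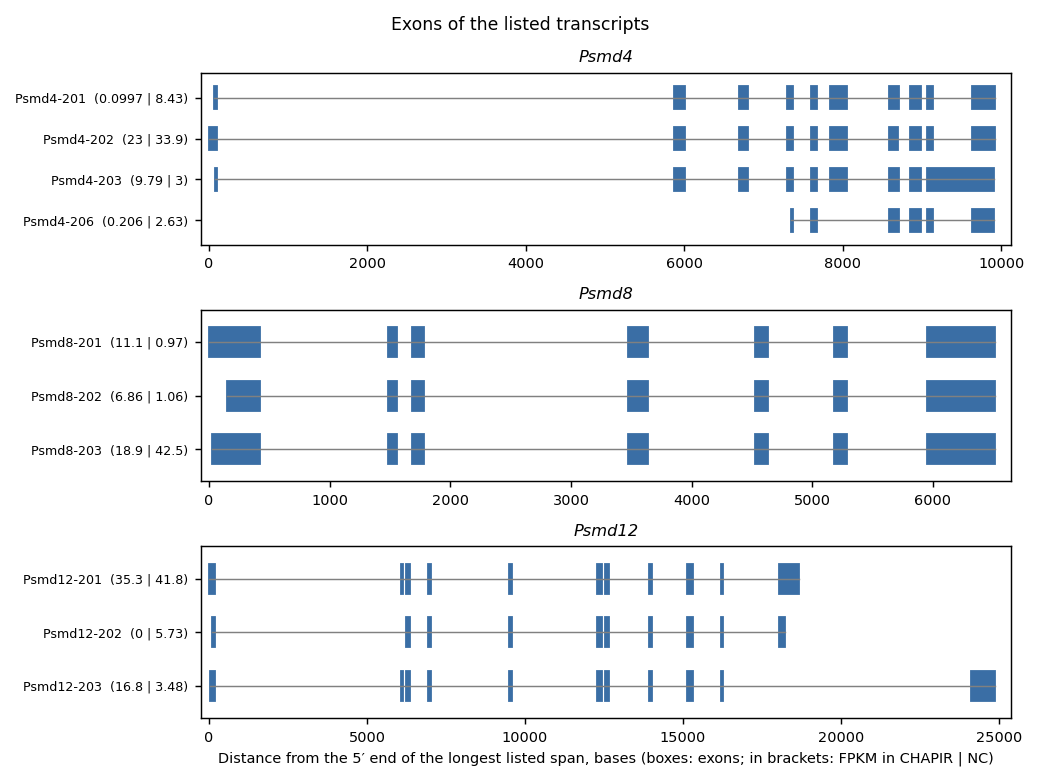
Exons (boxes) of the listed transcripts of Psmd4, Psmd8 and Psmd12, drawn 5′ to 3′ against distance in bases from the 5′ end of the longest span, with the level in FPKM in the CHAPIR heart and then the NC heart in brackets. Psmd4-203 keeps the last intron, the Psmd8 transcripts differ only in the first exon, and Psmd12-203 has its own last exon.

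Few genes of the wider pathway passed 1.5-fold. Of all genes, 6.38% passed it upward and 3.59% downward, so a count of 0 or 1 does not set a list this short apart. Of 13 proteasome partners without a Psm symbol, 0 were at least 1.5-fold higher and 1 was lower in the CHAPIR heart, with a median log2 ratio of -0.02, which became 0.00 at a minimum mean of 5 FPKM or with the most abundant transcript only. Pomp, the maturation factor of the core, had the highest ratio, at 29.6 FPKM in the CHAPIR heart and 24.2 FPKM in the NC heart. Txnl1, a thioredoxin-like protein bound to the regulatory particle, followed at 24.97 FPKM in the CHAPIR heart and 23.5 FPKM in the NC heart. The lowest was Fbxo7, an F-box protein that binds PI31, at 2.59 FPKM in the CHAPIR heart and 4.82 FPKM in the NC heart. Its direction turned with the most abundant transcript only, which gave a log2 ratio of 0.61, against -0.70 for the sum. In that setting 1 other partner passed 1.5-fold downward. The deubiquitinase Usp14 was at 23.5 FPKM in the CHAPIR heart and 26.4 FPKM in the NC heart. Adrm1, a ubiquitin receptor of the base beside Psmd4, was at 21.9 FPKM in the CHAPIR heart and 22.2 FPKM in the NC heart.

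Of 13 ubiquitin genes and enzymes that activate or carry ubiquitin, 0 were higher and 1 lower at 1.5-fold, with a median of -0.04. With the most abundant transcript only, 1 was higher and 3 lower. Log2 ratios of the sums were below 0 for 11 of the 13, or 10 under quantile normalization, beside 49.2% of all genes. The 1 gene lower at 1.5-fold by its sum was Ube2d3, a ubiquitin-conjugating enzyme, at 55.05 FPKM in the CHAPIR heart and 110.9 FPKM in the NC heart. The 2 genes above 0 were Ubb and Rps27a. Ubb, a polyubiquitin gene, was at 238 FPKM in the CHAPIR heart and 227 FPKM in the NC heart. Rps27a, a ribosomal fusion gene, was at 135 FPKM in the CHAPIR heart and 126 FPKM in the NC heart. Read from its most abundant transcript, Rps27a had a log2 ratio of -0.92, against 0.10 for the sum.

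None of the 15 shuttles and p97 cofactors passed 1.5-fold in either direction, with a median of 0.04. Faf2 was highest, at 5.02 FPKM in the CHAPIR heart and 4.32 FPKM in the NC heart, followed by the p97 adaptor Nsfl1c, at 18.99 FPKM in the CHAPIR heart and 17.1 FPKM in the NC heart. The ubiquilin gene Ubqln4 was lowest, at 14.5 FPKM in the CHAPIR heart and 17.5 FPKM in the NC heart, and Faf1 next, at 14.6 FPKM in the CHAPIR heart and 16.6 FPKM in the NC heart. The unfoldase Vcp itself was at 109.6 FPKM in the CHAPIR heart and 115.7 FPKM in the NC heart.

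The NRF1 route, through which cells are known to raise proteasome genes, had 0 of 12 genes past 1.5-fold, with a median of 0.09. With a pseudocount of 0.1, Maff passed it upward. When each gene was read from its most abundant transcript, the list median was -0.05 and 1 other gene passed 1.5-fold downward. Nfe2l1 was at 28.6 FPKM in the CHAPIR heart and 26.3 FPKM in the NC heart. The small MAF partners Maff and Mafk had the highest ratios, Maff at 4.38 FPKM in the CHAPIR heart and 2.73 FPKM in the NC heart and Mafk at 13.95 FPKM in the CHAPIR heart and 10.85 FPKM in the NC heart. Vcp, which is on this list too, and the deglycosylase Ngly1, at 11.4 FPKM in the CHAPIR heart and 11.9 FPKM in the NC heart, had the lowest.

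Of 11 ligases and adaptors known in muscle, 0 passed 1.5-fold in either direction, with a median of -0.13. The atrophy-linked ligases had the lowest ratios, Fbxo32 at 22.9 FPKM in the CHAPIR heart and 30.6 FPKM in the NC heart and Trim63 at 69.9 FPKM in the CHAPIR heart and 86.8 FPKM in the NC heart. The direction of Trim63 turned with the most abundant transcript only, which gave a log2 ratio of 0.97, against -0.31 for the sum. Fbxo30 had the highest, at 7.92 FPKM in the CHAPIR heart and 6.74 FPKM in the NC heart, followed by the scaffold Cul1, at 28.4 FPKM in the CHAPIR heart and 25.98 FPKM in the NC heart.

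**Figure D5:**
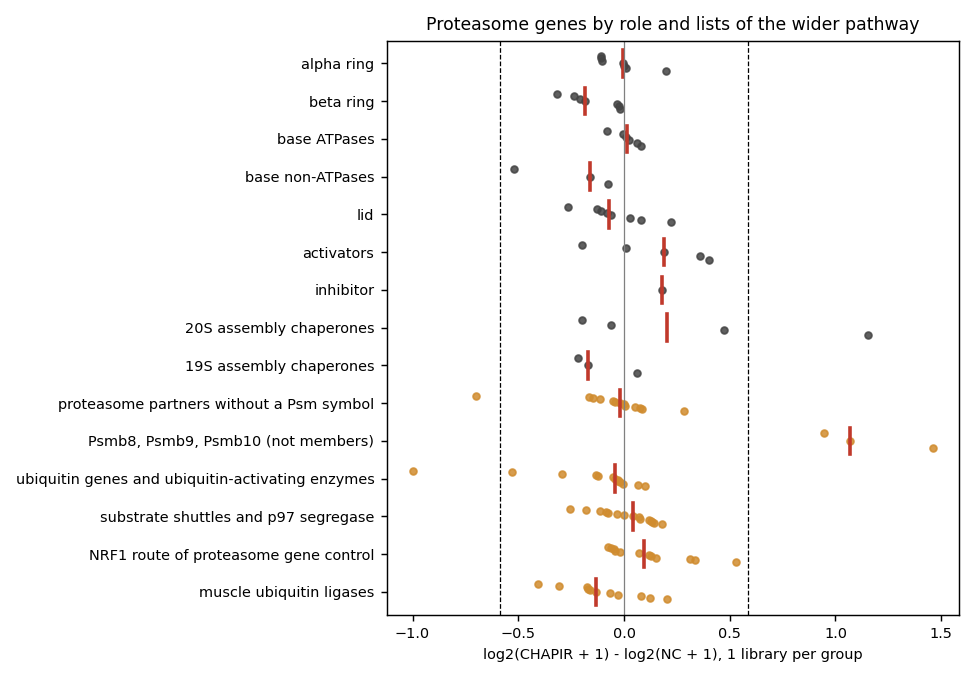
Log2 ratio of CHAPIR over NC for each measured proteasome gene by role (dark points) and for 6 lists of related genes (orange points), 1 library per group, with the median of each row as a red bar and 1.5-fold as dashed lines. Of the dark points 1, Psmg1, lies outside the lines, and the 3 inducible subunits lie to the right of them.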

How the data were processed

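RNA of 2 mouse hearts, 1 per group, was profiled. Libraries were made from total RNA with random primers and dUTP strand marking, per the labels' protocols. The deposited table holds 1 value per Ensembl transcript and library, read here as FPKM computed by the authors. The unit is not named in the labels or header and was inferred from the values: weighted by transcript length in kilobases they sum to 739668 (CHAPIR) and 732588 (NC). If they were TPM, every value would differ from FPKM by 1 constant per library. Ratios taken after adding 1 would then differ unevenly, most for genes with low values. The set of genes that reach the minimum mean could also differ. Cutadapt, HISAT2 2.0.5, StringTie, STAR 2.5.2b and the build GRCm38 are named without roles, per the submitters' processing notes. The annotation the authors counted on is unnamed in the labels and the file. The higher value of each of the 23178 transcripts is at least 0.5, so weaker transcripts were not analysed here. No read depth could be had from the values, so counting error is unknown.

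Identifiers without version were matched to GENCODE M21 on the same build (23128 matched, 50 did not, 21972 had the same version), and values were summed by symbol with pandas 2.3.3. Coordinates are 1-based. The pseudocount was 1, the minimum mean 1 FPKM and the threshold 1.5-fold. Members, lists and rules were chosen with earlier results of these data known. The genes named are all members, and the 2 highest and 2 lowest of each list, except 1 gene that is not reported here; Adrm1, Nfe2l1, Retn and Lep were named after their values were seen. The counting rule was run on simulated data with changes larger than the threshold and noise in 1 library only, which does not test smaller differences. Alternatives were pseudocounts of 0.1 and 5, other minimum means, centring, quantile normalization, rescaling, the most abundant transcript, version-matched transcripts and a 2-fold threshold.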

Additional observations from a re-analysis of the deposited data

How the results depend on the processing

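No paired analysis was possible because neither group had more than 1 library, and the depth of the libraries is unknown. Of the members, 1 was at least 1.5-fold higher in the CHAPIR heart and 0 lower. The count of higher members became 0 with version-matched transcripts only, because Psmg1 then has no value, and that of lower members became 1 with the most abundant transcript only, because Psmd8 was then read from 1 transcript. Neither count moved under the other settings tried. The median log2 ratio of members, -0.03, lay between -0.06 and 0.00 in every setting tried, including those chosen after seeing the data (members with 1 listed transcript, and structural subunits only).

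Of all genes, 708 were higher and 398 lower. At a pseudocount of 0.1 the lower count became 603, and at 5 the counts became 270 and 137. With a mean of at least 5 FPKM they were 345 and 172, because fewer genes were tested. With the most abundant transcript only they were 1065 and 745, and at 2-fold 261 and 128. In the other settings both stayed within 1.5 times. The cause of the remaining changes was not tested. Of the values of single members, 387 stayed within 1 SD of similarly expressed genes and 2 did not (Psmg4 and Psmd8, with the most abundant transcript only). Among the named genes of the pathway lists, whose alternatives were chosen after seeing the data, Fbxo7 turned to a log2 ratio of 0.61, Trim63 to 0.97 and Rps27a to -0.92 with the most abundant transcript only. Maff passed 1.5-fold at a pseudocount of 0.1, with 0.67, and Fbxo7 no longer did at 5, with -0.37.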
